A study of Mus musculus with 3 samples.

Results

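Endothelial cells in division were examined in 3 droplet-based single-cell RNA libraries from newborn mice. A barcode was taken as a cycling endothelial cell when it had at least 500 detected genes, at least 4 UMIs (unique molecular identifiers, each standing for 1 captured transcript) of Pecam1 and Cdh5 together, and at least 5 UMIs of Top2a, Ube2c, Cenpf and Mki67 together. The members were thus chosen by measured UMI counts, and the cycle genes and Pecam1 and Cdh5 carry no test. The rule chose 204 cells out of 2950 endothelial cells and 7633 barcodes with at least 500 genes. They were set against the 2086 endothelial cells with 0 UMIs of the 4 cycle genes, called 0-UMI cells here. The other 660 endothelial cells had 1 to 4 UMIs of those genes and entered no test. The question was which endothelial programme (arterial, venous, endocardial, lymphatic or capillary) the cycling cells carried.

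The animals were ICR mice of genotype HCN4H2BGFP at postnatal day 2, and every library came from them, so no library without the reporter entered the comparison. The labels give the sinoatrial node region as the tissue of all 3 libraries. The GFP-positive and GFP-negative libraries were sorted by flow cytometry on HCN4-GFP, and the library titled RA was unsorted. Its title and its tissue label do not match, so it is called RA. There was 1 library per group, and the sources used here do not say how many animals were pooled into it.

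Endothelial cells line vessels and heart chambers and keep programmes that differ with the vessel. Arterial cells carry Notch pathway genes and the connexins Gja4 and Gja5, venous cells the transcription factor Nr2f2, endocardial cells the natriuretic peptide clearance receptor Npr3, lymphatic cells the transcription factor Prox1, and capillary cells of the heart the fatty acid handling genes Fabp4, Cd36 and Gpihbp1. A cell that divides copies its DNA in S phase with replication factors such as Pcna and then builds the mitotic machinery in G2 and M phase. The 4 rule genes belong mainly to that later stage: Top2a untangles DNA, Ube2c passes ubiquitin to the anaphase-promoting complex, Cenpf sits at kinetochores and Mki67 coats mitotic chromosomes.

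Genes of G2 and M phase are known for promoters with CCAAT boxes, which the factor NF-Y binds, and for the cell cycle homology region, a TTTGAA element bound by the DREAM and MuvB complexes. The promoters of the 4 genes that chose the cells are shown for these motifs, as the 250 bases before the RefSeq start on GRCm38.p6, written along the gene's strand. They lie at chr11:99024190-99024439 on the minus strand for Top2a, chr2:164769679-164769928 on the plus strand for Ube2c, chr1:189688087-189688336 on the minus strand for Cenpf and chr7:135716380-135716629 on the minus strand for Mki67. Capitals mark CCAAT or its reverse complement ATTGG, and TTTGAA or its reverse complement TTCAAA. The 2 motifs of 1 kind can share bases, as in the CCAATTGG of Ube2c.
Top2a: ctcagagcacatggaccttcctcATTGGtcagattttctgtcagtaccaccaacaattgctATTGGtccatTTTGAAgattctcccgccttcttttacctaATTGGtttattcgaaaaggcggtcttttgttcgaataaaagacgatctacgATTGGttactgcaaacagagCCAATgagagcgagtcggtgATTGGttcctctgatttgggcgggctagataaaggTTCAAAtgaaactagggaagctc
Ube2c: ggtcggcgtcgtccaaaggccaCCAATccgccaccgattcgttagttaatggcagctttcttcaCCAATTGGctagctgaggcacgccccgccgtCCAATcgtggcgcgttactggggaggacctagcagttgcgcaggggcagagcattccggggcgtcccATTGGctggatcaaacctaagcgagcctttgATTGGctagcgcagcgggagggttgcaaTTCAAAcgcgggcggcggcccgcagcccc
Cenpf: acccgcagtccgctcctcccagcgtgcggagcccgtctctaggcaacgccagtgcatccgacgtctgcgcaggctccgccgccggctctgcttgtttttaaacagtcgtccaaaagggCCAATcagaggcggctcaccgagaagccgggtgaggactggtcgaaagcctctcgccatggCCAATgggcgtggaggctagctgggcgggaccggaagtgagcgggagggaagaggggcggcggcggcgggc
Mki67: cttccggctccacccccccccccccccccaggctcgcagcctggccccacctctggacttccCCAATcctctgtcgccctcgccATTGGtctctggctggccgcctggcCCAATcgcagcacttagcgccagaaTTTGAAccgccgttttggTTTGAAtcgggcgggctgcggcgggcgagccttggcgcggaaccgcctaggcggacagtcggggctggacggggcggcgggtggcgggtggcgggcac

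CCAAT was found 6 times for Top2a, 6 times for Ube2c, 2 times for Cenpf and 3 times for Mki67. TTTGAA was found 2 times for Top2a, 1 time for Ube2c and 2 times for Mki67. These letters are not in the Cenpf window, but 1 match for Cenpf ends past the start, outside the window. Among the genes of a G2/M list, 58 promoters of 52 genes matched in RefSeq, and 77.6% held CCAAT against 33.8% of all 32851 mouse promoters of this length. TTTGAA was in 39.7% of the G2/M promoters and in 16.0% of all promoters, and both motifs were in 34.5% and 5.55%. The 29 promoters of an S phase list held CCAAT in 69.0% and TTTGAA in 13.8%. A match describes the letters only, and no binding was measured.

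By the rule of 5 UMIs, cycling cells were found at close measured shares in each library. They numbered 174 of 2509 endothelial cells in the GFP-positive library, a share of 6.94% (95% exact Clopper-Pearson interval 5.97% to 8.0%). The share was 6.88% (3.71% to 11.5%), 13 of 189 cells, in the GFP-negative library and 6.75% (3.98% to 10.6%), 17 of 252 cells, in RA. The intervals cover counting error only, and with 1 library per group the difference between libraries was not tested. A count threshold depends on depth: after every endothelial cell was thinned to 5000 UMIs, the shares were 3.89%, 3.37% and 2.92%, given here and throughout for GFP-positive first, then GFP-negative, then RA. Few cells lay at the edge of the rule, with 7, 2 and 0 cells at exactly 5 UMIs of the cycle genes and 15, 0 and 1 endothelial cells at 4.

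Cycling cells were the deeper cells of every library. Their median was 23537, 17664 and 23132 UMIs, against 10677, 9864.5 and 10986 in the 0-UMI cells, and the cells with 1 to 4 UMIs of the cycle genes lay between at 15676, 11820 and 12742.5. Depth thus moved with the comparison in all 3 libraries. Its part in the results was examined by giving each cycling cell the unused 0-UMI cell nearest in depth. The deepest cycling cells had no 0-UMI cell of like depth. The maxima were 110481, 57203 and 47165 UMIs in cycling and 50771, 37229 and 37383 in 0-UMI cells. The matched 0-UMI cells had medians of 23533, 16581 and 22239 UMIs. They numbered 174, 13 and 17, against 1777, 130 and 179 0-UMI cells in all, so that fit rests on fewer UMIs. Whether a call was lost there through depth or through fewer cells was not tested. Median mitochondrial shares were 2.84%, 2.33% and 2.20% in cycling cells and 3.09%, 3.0% and 2.90% in 0-UMI cells. The GFP-positive library shared 19 barcodes with the GFP-negative library and 8 with RA, and the latter pair shared 9. Doublets were not removed, and 21, 1 and 2 cycling cells had over 40000 UMIs, against 14, 0 and 0 of the 0-UMI cells.

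Levels were compared as CPM, the UMIs of a gene scaled to an equal total in every sum, summed over the cells of 1 state in 1 library, which gave 6 sums, and tested with edgeR's quasi-likelihood test with the library as block. The library is therefore the replicate of the contrast between states (n = 3 pairs, 2 residual degrees of freedom), and nothing says that the libraries came from separate animals. An SE given with a log2 ratio was derived from this test, as the ratio's size divided by the square root of its F statistic. It is not the spread of the 3 libraries. Of 9509 genes tested, 697 (7.33%) rose and 372 (3.91%) fell in cycling cells at a Benjamini-Hochberg adjusted p under 0.05. Without the RA library 209 genes fell. A fit without 1 library has fewer pairs and fewer residual degrees of freedom. The fit without the GFP-positive library rests on 13 and 17 cycling cells. A smaller adjusted p in such a fit than over 3 libraries is therefore not taken as stronger evidence. With depth-matched 0-UMI cells, 338 rose and 157 fell, of which 337 and 112 were also called with all 0-UMI cells.

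The genes of the cycle follow from the rule and are described only. Top2a stood at 297, 329 and 290 CPM in cycling cells, Ube2c at 560, 352 and 464 CPM, Cenpf at 192, 80.3 and 205 CPM, and Mki67 at 117, 118 and 84.8 CPM, with 0 in the 0-UMI cells by construction. Cdk1, the kinase that drives entry into mitosis, was at 314, 313 and 462 CPM in cycling and 16.2, 28.2 and 28.9 CPM in 0-UMI cells. Without the 4 rule genes, the 55 fitted genes of the G2/M list had a median log2 ratio of 5.04, and the 37 of the S phase list 2.22. The lowest G2/M ratio was that of Ctcf (0.49), a chromatin factor. Pcna, the sliding clamp of DNA replication, was at 128, 233 and 162 CPM in cycling and 38, 54.9 and 56.3 CPM in 0-UMI cells. After thinning, the median cell had 39, 47 and 69 UMIs of the G2/M genes outside the 4 rule genes when cycling and 4 in each library when 0-UMI, against 9, 17 and 8 and 2 UMIs of the S phase genes. Outside every list, the 12 highest log2 ratios included those of the histone gene Hist1h2ap (7.33), the cohesin acetyltransferase Esco2 (6.33), the cohesin protector Sgol1 (6.28), the kinetochore gene Ska1 (6.16) and the abscission gene Cep55 (6.09), and also those of the MAX partner Mxd3 (5.93), the DNA glycosylase Neil3 (5.97), Shcbp1 (5.85) and the noncoding RNA Lockd (5.74).

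Among the 5 programmes the endocardial genes had the lowest median. Of 12 listed genes 9 were tested, 6 fell and 3 were not called, against 3.91% of all genes called lower, and all 9 had log2 ratios below 0. The median log2 ratio of the 9 was -0.99, beside -0.03 over all genes tested, and -0.68, -2.27 and -1.72 in the 3 libraries. The median was -1.82 without the GFP-positive library and -0.56 with depth-matched 0-UMI cells, where 1 gene, Npr3, was still called. In cells thinned to 5000 UMIs it was -0.84, and 5 endocardial genes were called lower. The programmes are shown gene by gene in the plot of log2 ratios.

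**Figure D1:**
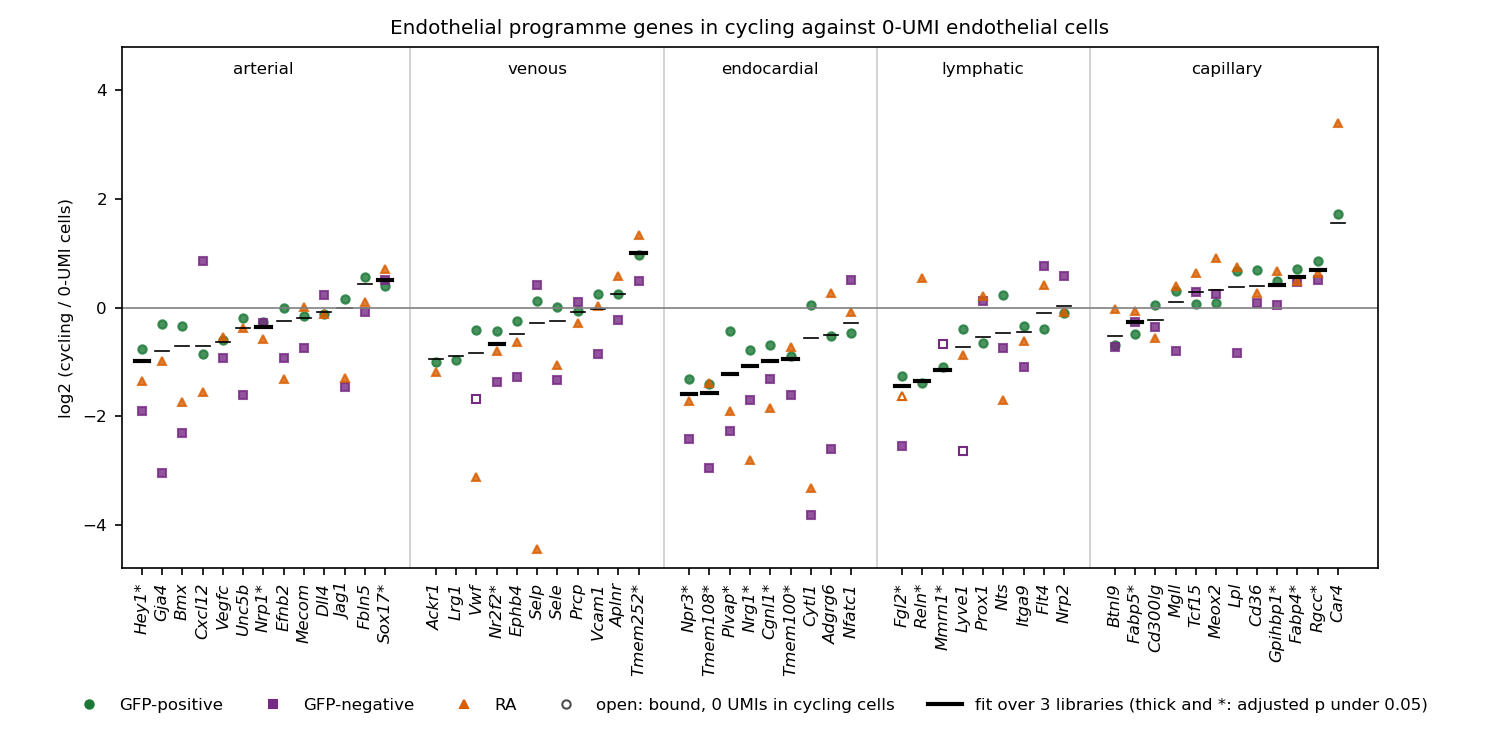
Log2 ratio of the level in cycling to that in 0-UMI endothelial cells (y axis) for tested genes of 5 endothelial programmes (x axis), with 1 venous gene left out. Points are single libraries with at least 10 UMIs in both states together, open points are bounds where cycling cells had 0 UMIs, and bars are the fit over 3 libraries, thick and starred at an adjusted p under 0.05. All 9 endocardial bars lie below 0, and 9 of 12 capillary bars lie above it.

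Npr3, which binds and removes natriuretic peptides and marks endocardium, was at 53.3, 34.4 and 82.4 CPM in cycling cells and at 133, 194 and 276 CPM in 0-UMI cells. The level was lower in the cycling cells of each library, and the highest cycling value lay under the lowest 0-UMI value. The log2 ratio was -1.59 (SE 0.17), with an adjusted p of 1.3e-05, and -0.94 (adjusted p 0.0085) with depth-matched cells. Npr3 was the programme gene that stayed called under all 13 other settings, with log2 ratios from -1.96 to -0.94. Cells with 1 to 4 UMIs of the cycle genes had 130, 161 and 329 CPM of Npr3, near or above the 0-UMI cells in the GFP-positive and RA libraries and below them in the GFP-negative library.

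Per cell the Npr3 difference showed at equal depth. Thinned to 5000 UMIs, 11.6% (7.21% to 17.3%) of cycling and 27.7% (25.6% to 29.8%) of 0-UMI cells of the GFP-positive library had an Npr3 UMI, and 31.6% and 35.5% did before thinning. Barcodes of that library without any Pecam1 or Cdh5 UMI, called barcodes outside here, had Npr3 in 11.9% after thinning, near the share in cycling cells. They were not shown to be free of endothelial cells. Those barcodes had a median of 12364 UMIs before thinning, against 23584 for the cycling and 10825 for the 0-UMI cells. The Npr3 shares were 15.4% and 39.2% in the GFP-negative library, 2 of 13 and 47 of 120 cells, and 35.3% and 49.7% in RA, with 3.50% and 2.44% in the barcodes outside. Before thinning they were 15.4% and 46.2%, and 47.1% and 53.1%. With 13 and 17 cycling cells, the intervals of these shares overlapped those of the 0-UMI cells.

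Tmem108, a membrane protein listed as an endocardial gene, followed Npr3. It was at 53.6, 19.1 and 82.4 CPM in cycling and 143, 163 and 219 CPM in 0-UMI cells, again with no overlap between the states. The log2 ratio was -1.57 (SE 0.19, adjusted p 4e-05), and -0.89 (adjusted p 0.0509) with depth-matched cells, where the call was lost. Plvap, which forms the diaphragms of fenestrated endothelium, was at 545, 87.9 and 118 CPM in cycling and 736, 434 and 444 CPM in 0-UMI cells. It fell by 1.22 on the log2 scale (SE 0.24, adjusted p 0.00386), with -0.43 in the GFP-positive, -2.27 in the GFP-negative and -1.90 in the RA library, and the matched value was -0.63 (adjusted p 0.118).

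The other endocardial genes that fell were Cgnl1, Tmem100 and Nrg1. Cgnl1, a junction protein, was at 99.6, 42.0 and 28.3 CPM in cycling and 160, 108 and 106 CPM in 0-UMI cells. Tmem100, a target of BMP9 and BMP10 signalling through ALK1, was at 54.0, 42.0 and 98.9 CPM against 101, 133 and 165 CPM. Their log2 ratios were -0.99 (SE 0.19) and -0.95 (SE 0.16), and neither was called with depth-matched cells, at -0.48 and -0.68. Nrg1, the ligand by which endocardium signals to cardiomyocytes, had a log2 ratio of -1.08 (SE 0.30, adjusted p 0.0332). It kept the call in 7 of 12 other settings, with ratios from -2.87 to -0.41. The value was -0.86 (adjusted p 0.101) without the RA library and -2.87 (adjusted p 0.00305) without the GFP-positive library, -0.41 (adjusted p 0.687) in thinned cells, and Nrg1 was too low to be tested with depth-matched cells.

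Cytl1, a secreted protein, was not called and differed between libraries. It was at 605 CPM in cycling and 586 CPM in 0-UMI cells of the GFP-positive library, but at 3.82 and 80.9 CPM in the GFP-negative library and 4.71 and 58.7 CPM in RA. Without the GFP-positive library its log2 ratio was -3.91 (adjusted p 7.04e-12), and over all 3 libraries -0.57 (adjusted p 0.372). The former fit rests on 13 and 17 cycling cells, with 1 Cytl1 UMI in those of the GFP-negative library. Nfatc1, the transcription factor of endocardial cushions, stood at 48.3, 45.9 and 35.3 CPM in cycling and 66.7, 33.1 and 38.3 CPM in 0-UMI cells and was not called (log2 ratio -0.28, adjusted p 0.42).

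**Figure D2:**
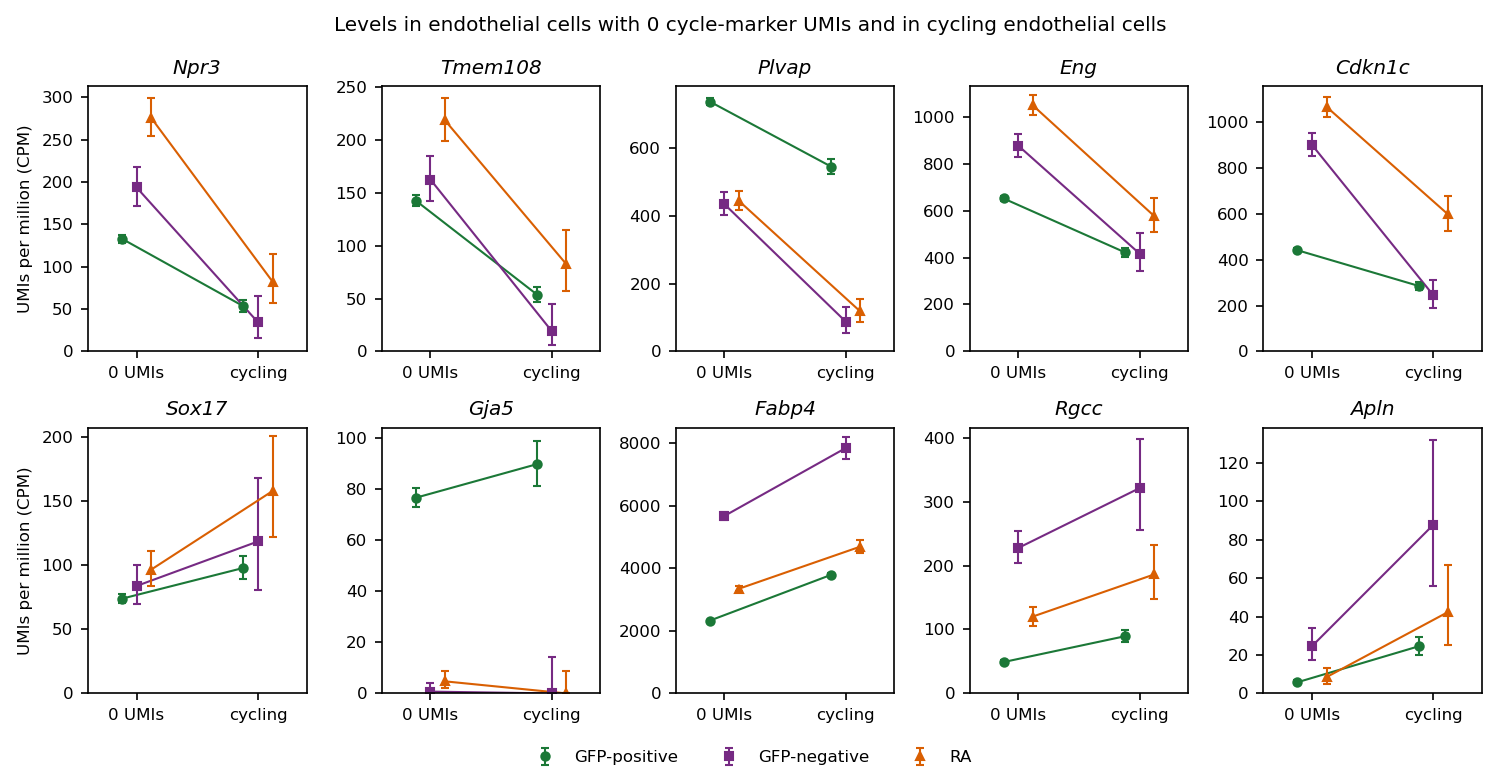
Level in CPM (y axis) of 10 genes in endothelial cells with 0 UMIs of the cycle genes and in cycling endothelial cells (x axis), with 1 line per library and 95% exact Poisson intervals that cover counting error only. Npr3, Tmem108, Plvap, Eng and Cdkn1c are lower in the cycling cells of all 3 libraries, and Sox17, Fabp4, Rgcc and Apln are higher.

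Lymphatic genes were also mostly below 0. Of 12 listed genes 9 were tested, 3 fell and 6 were not called, against 3.91% of all genes called lower, and the median log2 ratio was -0.55, with -0.40, -1.09 and -0.34 in the libraries. With genes at 0 UMIs set at their bound, the medians were -0.40, -0.72 and -0.41. The matched median was -0.81, and Fgl2 and Mmrn1 stayed called there at -1.82 and -1.52.

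Fgl2, a fibrinogen-like protein, was at 46.7, 3.82 and 0 CPM in cycling and 113, 33.1 and 21.8 CPM in 0-UMI cells, which is at least 3.08-fold lower in RA against a floor of 3 UMIs per sum. Its log2 ratio in the fit was -1.44 (SE 0.25, adjusted p 0.00135). Mmrn1, a secreted multimerin of lymphatic endothelium, was at 27.2, 0 and 2.35 CPM against 58.0, 18.3 and 2.36 CPM, and Reln, the secreted glycoprotein reelin, at 7.75, 0 and 4.71 CPM against 20.4, 8.45 and 3.78 CPM. Mmrn1 (log2 ratio -1.16, adjusted p 0.0144) and Reln (-1.34, adjusted p 0.022) were read mainly in the GFP-positive library, and without it both were too low to be tested. DESeq2 called neither gene.

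The markers that define lymphatic cells gave no call. Prox1, the factor that sets lymphatic identity, was at 35.9, 7.64 and 11.8 CPM in cycling and 56.3, 8.45 and 10.9 CPM in 0-UMI cells (log2 ratio -0.55, adjusted p 0.159). Lyve1, the hyaluronan receptor, was at 67.3, 0 and 21.2 CPM against 89.0, 71.1 and 40.7 CPM (adjusted p 0.149), at least 6.20-fold lower in the GFP-negative library. Without the GFP-positive library the log2 ratio of Lyve1 was -2.00 (adjusted p 6.88e-05). Flt4, the receptor of VEGF-C, was at 19.9, 34.4 and 21.2 CPM against 26.3, 21.1 and 16.6 CPM and was not called.

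Capillary genes leaned the other way. Of 14 listed genes 12 were tested, 3 rose, 1 fell and 8 were not called, against 7.33% of all genes called higher, and 9 of the 12 had log2 ratios above 0. The median log2 ratio was 0.35, with 0.40, -0.11 and 0.56 in the libraries, and 0.05 in the GFP-negative library with genes at 0 UMIs set at their bound. With depth-matched 0-UMI cells the median was 0.13 and none of the 12 genes was called higher by edgeR. In cells thinned to 5000 UMIs the median was 0.13 too, and 2 capillary genes were called higher. The median thinned cell had 18, 71 and 46 UMIs of the capillary list when cycling and 18, 43 and 35 when 0-UMI.

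Fabp4, the fatty acid carrier of capillary endothelium, was at 3794, 7850 and 4696 CPM in cycling and 2327, 5675 and 3348 CPM in 0-UMI cells. The cycling level was higher in each library, and the 2 states overlapped across libraries. The log2 ratio was 0.56 (SE 0.05, adjusted p 4.68e-06), and 0.25 (adjusted p 0.288) with depth-matched cells. Rgcc, a regulator of the cell cycle that capillary endothelium also expresses, was at 89.4, 321 and 186 CPM against 49.0, 227 and 120 CPM. It rose by 0.70 on the log2 scale (SE 0.13, adjusted p 0.0019). The value was 0.33 (adjusted p 0.572) with depth-matched cells, and 0.37 (adjusted p 0.103) without barcodes over 40000 UMIs.

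Gpihbp1, which carries lipoprotein lipase across the capillary wall, was at 209, 684 and 631 CPM in cycling and 148, 659 and 395 CPM in 0-UMI cells. Its log2 ratio was 0.42 (SE 0.11, adjusted p 0.0261), 0.29 (adjusted p 0.328) without RA, and 0.32 (adjusted p 0.302) with depth-matched cells. Cd36, the fatty acid translocase, was at 266, 371 and 276 CPM against 164, 351 and 228 CPM and missed the threshold (log2 ratio 0.40, adjusted p 0.0586), and it had 0.54 (adjusted p 0.000656) without the GFP-negative library. Fabp5, a fatty acid carrier of many cell types, fell by 0.27 on the log2 scale (SE 0.07, adjusted p 0.0186). It had -0.17 (adjusted p 0.0614) without the GFP-positive library, and with depth-matched cells it had 0.24 (adjusted p 0.304), in the other direction.

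The shares of cells with a UMI were compared at equal depth for Rgcc and Fabp4, which were not called with depth-matched cells. An Rgcc UMI was found after thinning in 15.6% (10.5% to 21.9%) of cycling and 9.20% (7.88% to 10.7%) of 0-UMI cells of the GFP-positive library, and in 31.6% and 15.8% before thinning. The barcodes without Pecam1 or Cdh5 UMIs had Rgcc in 4.76%. In the GFP-negative library the Rgcc shares were 69.2% (9 of 13 cells) and 32.5%, with 4.88% outside, and in RA 29.4% (5 of 17 cells, 10.3% to 56.0%) and 21.0% (15.1% to 27.9%), with 1.76% outside. Before thinning the Rgcc shares there were 84.6% and 40.8%, and 52.9% and 29.6%. The intervals of the 2 states overlapped in all 3 libraries for both genes. Fabp4 was in 85.5% of cycling and 80.5% of 0-UMI cells of the GFP-positive library, but also in 58.3% of the barcodes outside, and before thinning in 98.3% and 93.2% of the 2 states. The thinned Fabp4 shares were 84.6% and 65.8% in the GFP-negative library and 76.5% and 61.7% in RA, with 31.1% and 34.8% outside.

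Arterial genes were mostly below 0, at 10 of the 13 tested, with calls in both directions. Of 18 listed genes 13 were tested, 1 rose, 2 fell and 10 were not called (over all genes tested, 7.33% were called higher and 3.91% lower), and the median log2 ratio was -0.36, with -0.20, -0.93 and -0.57 in the libraries. The matched median was -0.44. Per cell the libraries differed: the median thinned cell had 10, 4 and 3 UMIs of the arterial list when cycling and 8, 5 and 5 when 0-UMI. Sox17, a transcription factor of arterial endothelium, was at 97.8, 118 and 158 CPM in cycling and 73.9, 83.8 and 96.5 CPM in 0-UMI cells. Its log2 ratio was 0.52 (SE 0.14, adjusted p 0.0247), but 0.44 (adjusted p 0.155) without RA and -0.23 (adjusted p 0.435) with depth-matched cells, where the direction turned. Hey1, a Notch target, was at 20.6, 7.64 and 18.8 CPM against 34.9, 35.2 and 50.6 CPM, lower in each library without overlap. It fell by 0.99 on the log2 scale (SE 0.23, adjusted p 0.0121) and by 1.17 (adjusted p 0.00946) with depth-matched cells, while it missed the threshold at -0.89 (adjusted p 0.0569) without RA.

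Nrp1, a coreceptor of VEGF and semaphorins, fell by 0.36 (SE 0.10, adjusted p 0.0326), and had -0.27 (adjusted p 0.338) without RA and -0.42 (adjusted p 0.0658) with depth-matched cells. The connexin Gja4 was at 259, 19.1 and 49.5 CPM in cycling and 321, 172 and 100 CPM in 0-UMI cells and missed the threshold over 3 libraries (log2 ratio -0.79, adjusted p 0.0702). It passed when any 1 of the 3 libraries was left out, with -1.76 (adjusted p 8.89e-09) without the GFP-positive, -0.44 (adjusted p 0.0267) without the GFP-negative and -0.79 (adjusted p 0.0469) without the RA library. The connexin Gja5 and the secreted protein Gkn3 were seen nearly only in the GFP-positive library and were too low elsewhere to be tested. Gja5 was there at 89.9 CPM in cycling and 76.7 CPM in 0-UMI cells, and Gkn3 at 135 and 110 CPM. Fbln5, an elastic fibre protein, was at 1407 and 955 CPM in that library, and over all 3 libraries it was not called (log2 ratio 0.44, adjusted p 0.072), though it was without the GFP-negative library (0.54, adjusted p 0.00141).

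Venous genes were likewise mostly below 0, at 10 of the 12 tested, with calls in both directions. All 12 listed genes were tested, 1 rose, 2 fell and 9 were not called (over all genes tested, 7.33% were called higher and 3.91% lower), with a median log2 ratio of -0.39 and -0.15, -1.07 and -0.80 in the libraries. The median was -0.95 without the GFP-positive library and -0.35 with depth-matched cells, where none of the 12 was called in either direction. In thinned cells it was -0.39, with 1 venous gene called higher and 1 lower. Nr2f2, the factor that sets venous identity, was at 120, 45.9 and 82.4 CPM in cycling and 162, 122 and 145 CPM in 0-UMI cells, and fell by 0.67 on the log2 scale (SE 0.16, adjusted p 0.0141). Its matched value was close in size at -0.63 but was not called (adjusted p 0.168).

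Tmem252, a membrane protein, rose by 1.0 on the log2 scale (SE 0.22, adjusted p 0.00851) from 15.4, 12 and 18 CPM in 0-UMI cells to 30.1, 15.3 and 44.7 CPM in cycling cells. The value was 1.03 (adjusted p 0.117) without the GFP-positive library, 0.90 (adjusted p 0.0623) without RA and 0.16 (adjusted p 0.772) with depth-matched cells. Vwf, the protein by which platelets bind vessel walls, was at 429, 0 and 7.06 CPM in cycling and 571, 36.6 and 70.9 CPM in 0-UMI cells and was not called (adjusted p 0.0953). It was at least 3.19-fold lower in the GFP-negative library, and without the GFP-positive library its log2 ratio was -3.70 (adjusted p 2.16e-09). Without the GFP-negative library it was -0.67 (adjusted p 0.000304).

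Over the 5 programmes together, 5 genes rose and 14 fell. Among all genes tested outside the S and G2/M lists, 6.43% rose and 3.95% fell. The number that rose was 10 without the GFP-negative library and 2 without RA, and the number that fell ranged from 12 to 20 as libraries were left out. With depth-matched 0-UMI cells, which are fewer, 0 rose and 5 fell, beside 338 higher and 157 lower over all genes. In cells thinned to 5000 UMIs 4 rose and 8 fell, beside 418 higher and 208 lower over all genes. Without barcodes over 40000 UMIs 3 rose. The endocardial median was the lowest and the capillary median the highest when each library was left out, while the order of the other 3 changed, as the plot of medians by setting shows. With depth-matched cells the lymphatic median was the lowest instead.

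**Figure D3:**
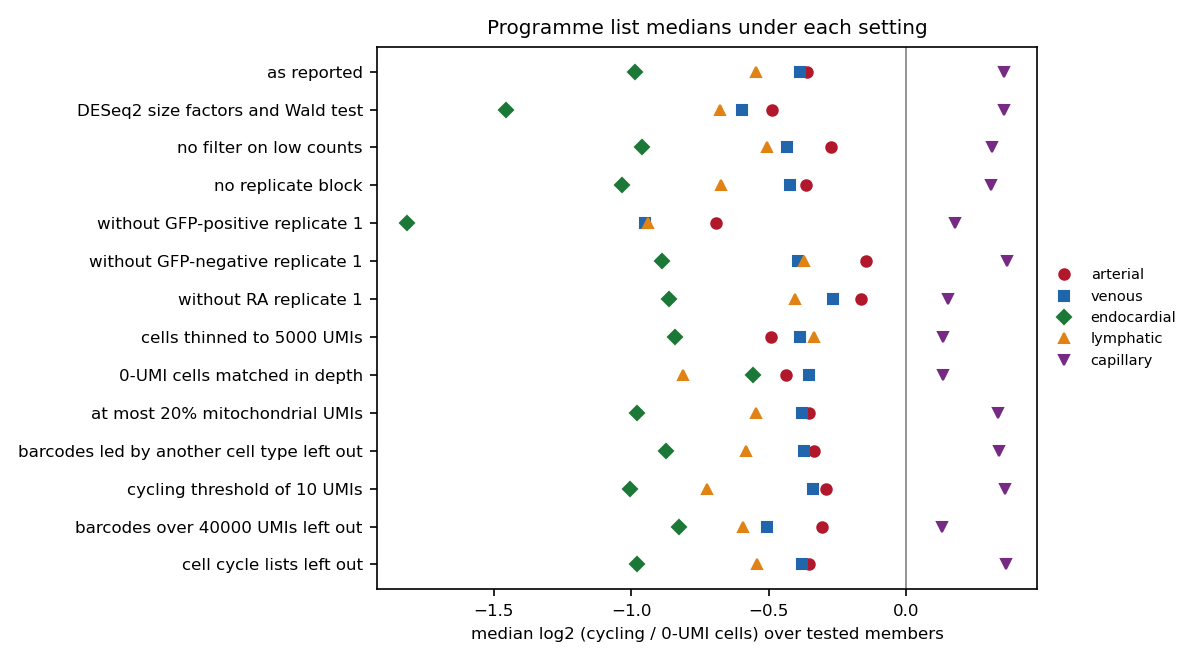
Median log2 ratio of cycling to 0-UMI cells over the tested genes of each programme (x axis) as reported and under each of 13 other settings (y axis). The capillary median lies above 0 in every setting shown (0.13 to 0.36), and the endocardial median lies below 0 in every one (-1.82 to -0.56).

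Cells were also sorted by the programme genes they carried. A cell was given a programme when it had at least 3 UMIs of the first 3 genes of its list after thinning to 5000 UMIs, a threshold chosen after the files were seen. The genes were Gja4, Gja5 and Sox17 (arterial), Nr2f2, Ephb4 and Vwf (venous), and Npr3, Tmem108 and Cytl1 (endocardial). For the other gates they were Prox1, Lyve1 and Pdpn (lymphatic) and Rgcc, Car4 and Cd36 (capillary). The same gate was read in barcodes without Pecam1 or Cdh5 UMIs as a background. In cycling cells of the GFP-positive library Vwf was at 429 CPM, beside 120 for Nr2f2 and 113 for Ephb4. Cytl1 was at 605 CPM, beside 53.3 for Npr3 and 53.6 for Tmem108. Most venous and endocardial gate UMIs there thus came from Vwf and Cytl1, which stood at 0 and 3.82 CPM in GFP-negative cycling cells. In the GFP-positive library the venous gate was met by 56.6% (48.9% to 64.1%) of cycling cells and the endocardial gate by 36.4% (29.2% to 44.1%). The arterial gate was met by 27.7% (21.2% to 35.1%), the capillary gate by 19.7% (14.0% to 26.4%) and the lymphatic gate by 5.78% (2.81% to 10.4%). The 0-UMI cells of that library had 61.4%, 43.9%, 26.8%, 12.5% and 8.68%, and the barcodes outside 3.97%, 9.52%, 2.38%, 3.17% and 8.73%. Before thinning, the gates were met by 95.4%, 69.5%, 66.7%, 43.1% and 32.8% of cycling and 85.6%, 59.0%, 47.8%, 24.8% and 23.2% of 0-UMI cells, so the order of the states for venous, endocardial and lymphatic genes turned with thinning. More than 1 programme was met by 43.9% of cycling and 51.8% of 0-UMI cells, and 11.0% and 9.66% met none. The venous, endocardial, arterial and capillary shares of both states lay above the background, and the lymphatic share of neither state did.

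The 13 and 17 cycling cells of the other two libraries give wide intervals. In the GFP-negative library 61.5% (8 of 13) of cycling cells met the capillary and 7.69% (1 of 13) the endocardial gate, against 35.8% and 35% of 0-UMI cells. No cycling cell there met the arterial, venous or lymphatic gate, which allows shares of up to 24.7%. In RA 29.4% (5 of 17) met the endocardial, 23.5% (4 of 17) the capillary, 11.8% (2 of 17) the arterial and 5.88% (1 of 17) the venous gate, against 43.1%, 25.7%, 10.2% and 29.9% of 0-UMI cells. Before thinning, the endocardial gate was met by 15.4% and 42.3% of cycling and 0-UMI cells of the GFP-negative library and 35.3% and 48.6% of RA, and the capillary gate by 76.9% and 43.1%, and 58.8% and 33% of them. The barcodes outside met these gates after thinning in at most 3.15% in the GFP-negative library and 1.62% in RA. These shares are descriptions of single libraries, with no test. The venous and endocardial gates include genes whose levels differed between libraries, so their shares are not compared between libraries.

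**Figure D4:**
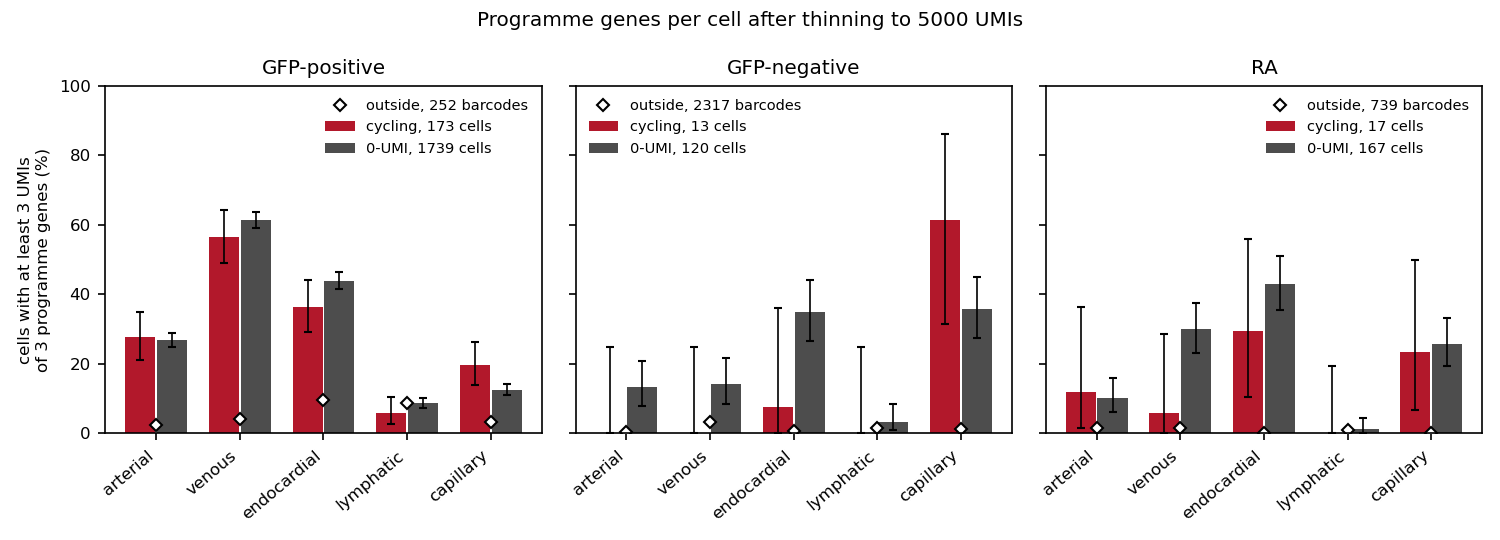
Share of cells with at least 3 UMIs of the first 3 genes of a programme's list (y axis, percent) in cycling and 0-UMI endothelial cells of each library (panels), after thinning to 5000 UMIs, with 95% exact Clopper-Pearson intervals. Open diamonds are barcodes with 0 UMIs of Pecam1 and Cdh5. In the GFP-positive library their lymphatic share, 8.73%, lies above those of cycling cells, 5.78%, and 0-UMI cells, 8.68%.

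Of the genes of vessel sprouting, Apln and Esm1 rose. They were 2 of 16 tested, against 7.33% of all genes called higher, and the other 14 were not called, with a median log2 ratio of 0.18. Apln, the apelin ligand that tip cells of growing vessels secrete, was at 24.6, 87.9 and 42.4 CPM in cycling and 5.81, 24.6 and 8.51 CPM in 0-UMI cells. It was higher in the cycling cells of each library, and rose by 2.06 on the log2 scale (SE 0.21, adjusted p 8.3e-06). The cells with 1 to 4 UMIs of the cycle genes had 4.42, 32.2 and 3.80 CPM of Apln, nearer to the 0-UMI than to the cycling cells in each library. Apln was too low to be tested with depth-matched cells, and it rose in 11 of the 12 other settings that gave a value, all but the fit without the library block.

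An Apln UMI was in 6.36% (3.22% to 11.1%) of thinned cycling and 2.36% (1.70% to 3.18%) of 0-UMI cells of the GFP-positive library, with 0.397% in the barcodes outside. The Apln shares were 46.2% (6 of 13) and 8.33% in the GFP-negative library and 17.6% (3 of 17) and 2.99% in RA, with 0.863% and 0.406% outside. Before thinning, Apln was in 19.0%, 53.8% and 35.3% of cycling and 4.95%, 13.8% and 6.15% of 0-UMI cells. Esm1, a tip cell proteoglycan, rose by 2.78 on the log2 scale (SE 0.70, adjusted p 0.0195) from few UMIs, with 14, 4 and 7 in cycling and 9, 10 and 0 in 0-UMI cells. In RA, where the 0-UMI cells had none, Esm1 was at least 11.6-fold higher in cycling cells. The VEGF receptor Kdr stood at 153, 172 and 155 CPM in cycling and 139, 191 and 157 CPM in 0-UMI cells and was not called (adjusted p 0.924).

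Genes shared by endothelial cells of all vessels were detected in the cycling cells of each library. Pecam1 and Cdh5 served the rule and carry no test, and Pecam1 stood at 733, 417 and 398 CPM in cycling and 806, 536 and 558 CPM in 0-UMI cells, Cdh5 at 395, 493 and 483 CPM and 386, 510 and 476 CPM. A rule in UMIs is met at a lower CPM by a deeper cell. Of the 16 genes of the list, those 2 left out, 14 were tested, 4 fell and none rose (over all genes tested, 7.33% were called higher and 3.91% lower), with a median log2 ratio of -0.12, and for the higher direction edgeR gave 1 gene at an unadjusted p under 0.05 and DESeq2 called 0. Eng, the coreceptor of BMP9 and TGF-beta, was at 422, 417 and 577 CPM in cycling and 652, 877 and 1049 CPM in 0-UMI cells, without overlap. It fell by 0.82 (SE 0.10, adjusted p 3.27e-05) and by 0.49 (adjusted p 0.0217) with depth-matched cells. Emcn, the sialomucin endomucin, was at 438, 355 and 407 CPM against 676, 649 and 731 CPM and fell by 0.76 (SE 0.09, adjusted p 5.36e-05), but had -0.27 (adjusted p 0.191) with depth-matched cells.

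The receptor Tie1 (log2 ratio -0.47) and the adhesion protein Ecscr (-0.47) fell too, and both lost the call without RA, at -0.39 (adjusted p 0.194) and -0.44 (adjusted p 0.0602), and with depth-matched cells, at -0.30 and -0.36. The junction protein Esam was level, at 408, 482 and 502 CPM in cycling and 403, 488 and 492 CPM in 0-UMI cells. The tight junction gene Cldn5 was at 865, 703 and 676 CPM against 949, 501 and 380 CPM and was not called over 3 libraries (log2 ratio 0.36, adjusted p 0.125). It passed at 0.67 (adjusted p 3.47e-07) without the GFP-positive library and at 0.30 (adjusted p 0.0465) without the GFP-negative library.

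Among genes of quiescence and shear stress 15 were tested, 2 fell and none rose (over all genes tested, 7.33% were called higher and 3.91% lower). For the higher direction edgeR gave 3 genes at an unadjusted p under 0.05 and DESeq2 called 0. Cdkn1c, the imprinted inhibitor p57 that holds cells out of the cycle, was at 286, 245 and 598 CPM in cycling and 442, 901 and 1067 CPM in 0-UMI cells, and fell by 1.01 on the log2 scale (SE 0.16, adjusted p 0.000719). It fell by 1.16 (adjusted p 0.00254) with depth-matched cells. The cells with 1 to 4 UMIs had 452, 782 and 1112 CPM of Cdkn1c, near the 0-UMI cells. Btg1, an antiproliferative gene, fell by 0.42 (SE 0.10, adjusted p 0.0138), and had -0.31 (adjusted p 0.0555) without the GFP-positive library, -0.39 (adjusted p 0.0715) without RA and -0.31 (adjusted p 0.141) with depth-matched cells. The inhibitors Cdkn1a (log2 ratio 0.43, adjusted p 0.106) and Cdkn1b (0.26, adjusted p 0.549) and the shear-responsive factors Klf2 (0.33, adjusted p 0.0673) and Klf4 (-0.07, adjusted p 0.853) were not called.

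Growth and biosynthesis genes leaned higher. Of 15 tested, 5 rose and 10 were not called, against 7.33% of all genes called higher, all 15 had log2 ratios above 0, and the median was 0.36. Odc1, the first enzyme of polyamine synthesis, was at 138, 459 and 327 CPM in cycling and 100, 176 and 127 CPM in 0-UMI cells, and rose by 1.0 on the log2 scale (SE 0.17, adjusted p 0.000902). Nop56 of the ribosome-building nucleolus rose by 0.82 (SE 0.16, adjusted p 0.00378), the cap-binding factor Eif4e by 0.64 (SE 0.13, adjusted p 0.00533), the glycolytic enzyme Gapdh by 0.54 (SE 0.08, adjusted p 0.000421) and nucleolin, Ncl, by 0.36 (SE 0.10, adjusted p 0.0334). With depth-matched cells Odc1 (1.07), Nop56 (0.71), Eif4e (0.59) and Gapdh (0.40) stayed called and Ncl (0.29, adjusted p 0.195) did not, and Ncl also missed the threshold without RA (0.30, adjusted p 0.288). Myc stood at 31.2, 34.4 and 28.3 CPM in cycling and 29.6, 34.5 and 24.6 CPM in 0-UMI cells and was not called (adjusted p 0.851).

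Immediate early and heat shock genes, which respond to tissue dissociation, did not pass the test in either direction. Of 13 tested edgeR called 0 and DESeq2 called 0, and 1 had an unadjusted p under 0.05. The median log2 ratio was 0.02. Fos was at 1522, 405 and 867 CPM in cycling and 1517, 608 and 606 CPM in 0-UMI cells.

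Outside every list, the genes with the lowest log2 ratios were named by a fixed rule. The matrix gene Comp was at 11.1, 3.82 and 14.1 CPM in cycling and 35.1, 88.7 and 98.4 CPM in 0-UMI cells, and fell by 2.09 on the log2 scale (SE 0.27, adjusted p 8.55e-05). The ephrin receptor Epha7 was at 15.9, 3.82 and 14.1 CPM against 55.8, 32.4 and 49.2 CPM and fell by 1.85 (SE 0.22, adjusted p 3.82e-05). The states did not overlap for either gene, and both were too low to be tested with depth-matched cells. The transcript 6330403K07Rik fell by 1.91 (SE 0.23, adjusted p 5.36e-05) and by 1.66 (adjusted p 0.00201) with depth-matched cells.

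The PI3 kinase inhibitor Pik3ip1 was at 18.4, 15.3 and 18.8 CPM in cycling and 39.6, 37.3 and 57.7 CPM in 0-UMI cells, and fell by 1.21 on the log2 scale (SE 0.21, adjusted p 0.00117). The apolipoprotein Apoc1 fell by 1.59, the phospholipase Pla2g7 by 1.32 and the plasma glycoprotein Ahsg by 1.29. The matched value was -0.85 (adjusted p 0.0673) for Pla2g7 and -0.69 (adjusted p 0.36) for Ahsg, both no longer called. The others were Gm43194, Ggt5, Fam174b, Capn6 and the ligand Wnt2, with log2 ratios from -1.54 to -1.21.

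The reporter transcript was read in cycling cells of the GFP-positive library. Thinned, 22% (16% to 28.9%) of cycling and 17.8% (16.0% to 19.6%) of 0-UMI cells of the GFP-positive library had a GFP UMI, and 60.3% and 35.7% did before thinning. Barcodes of that library without Pecam1 or Cdh5 UMIs had GFP in 15.1%. GFP was in 0 of 13 cycling cells of the GFP-negative library and 0 of 17 of RA, which allows shares of cells with a GFP UMI of up to 24.7% and 19.5% and sets no limit on cells that carry the reporter. Their 0-UMI cells had GFP in 1 of 120 (0.833%) and 0 of 167. Hcn4 itself was in 1.16% of thinned cycling and 0.863% of 0-UMI cells of the GFP-positive library, at or below the 1.19% of the barcodes outside.

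Markers of other cell types were read in the endothelial barcodes of both states. All 8 fibroblast markers were detected in each library, and they summed to 1563, 2270 and 3075 CPM in cycling and 1907, 3147 and 2700 CPM in 0-UMI cells. The 8 cardiomyocyte markers summed to 1520, 214 and 593 CPM against 1159, 326 and 586 CPM, with Myh6 and Ttn at 0 in the cycling cells of the GFP-negative library. The 8 macrophage markers summed to 6.86, 401 and 77.7 CPM against 13.6, 42.9 and 96.0 CPM, and 1 of the 13 cycling cells of the GFP-negative library held 96 of those UMIs. Smooth muscle or pericyte markers summed to 55.3, 917 and 177 CPM against 59.2, 494 and 271 CPM, and 1 cycling cell of the GFP-negative library held 188 of those UMIs. Erythroid markers summed to 50.2, 2851 and 4246 CPM against 49.0, 8959 and 4588 CPM. In 12, 2 and 4 of the 174, 13 and 17 cycling barcodes the UMIs of another type's markers exceeded those of the pan-endothelial list. The same held for 83, 14 and 42 of the 1777, 130 and 179 0-UMI barcodes. Erythroid markers did so in 4 cycling and 38 0-UMI barcodes of RA. Without such barcodes in both states 639 genes rose and 261 fell, and Npr3, Tmem108, Fabp4, Rgcc and Apln stayed called. Of the named genes called outside the cycle lists, 51 kept the call there and 5 lost it.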

How the data were processed

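Gene expression was measured in single cells of 3 libraries with droplet UMIs. The deposited matrices hold raw UMI counts per gene and barcode, made by the authors with Cell Ranger on mm9, per the submitters' processing notes, whose versions are not given in the sources used here. Endothelial barcodes were selected and split into states by UMI counts, with no doublet caller run. Counts were summed per library and state and fitted with edgeR 4.0.16 in R 4.3.3 (TMM, filterByExpr, quasi-likelihood test, Benjamini-Hochberg adjustment), with the library as block because both states of a pair come from the same library. Deposited gene identifiers were paired with names in the matrices.

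Named genes were the members of 12 lists (243 genes, 1 not found) and, outside them, the 12 highest and 12 lowest called log2 ratios that had 1 direction in 3 libraries and 50 CPM in at least 1 sum. The members and lists were chosen with earlier results of these data known. Shares of cells were computed after thinning to 5000 UMIs, with exact intervals that cover counting error only. Alternatives were DESeq2 1.42.0, no filter, no block, libraries left out, thinned or depth-matched cells, stricter thresholds and barcodes left out, of which the limit of 40000 UMIs was added after the data were seen. On simulated data, 63% of genes changed 2-fold and 97% of genes changed 4-fold were called in the fit of 9509 genes, with 4 false calls. The simulated sums had the same spread for every gene, and only genes of higher counts were changed. These rates therefore need not hold for the real sums. Python 3.11.15, numpy 2.4.6, scipy 1.17.1, pandas 2.3.3 and matplotlib 3.10.9 were used. Promoter sequences are RefSeq GRCm38.p6, a different build from the deposited counts, and were joined by gene name only. Values of some listed genes are not reported here.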

Additional observations from a re-analysis of the deposited data

Results flagged for a closer look

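Lpl, the lipase that Gpihbp1 binds, differed in direction between libraries. Its log2 ratio of cycling to 0-UMI cells was 0.67 in the GFP-positive library and 0.75 in RA, but -0.83 (-1.57 to -0.23) in the GFP-negative library, where the cycling cells held 22 UMIs. Pgf, a ligand of the VEGF family, had a log2 ratio of -0.70 (-1.16 to -0.30) among the GFP-positive cells. Its value in RA, 3.45 (1.03 to 7.03), rests on 5 UMIs in cycling and 2 in 0-UMI cells. The intervals are exact, at the 95% level, and cover counting error only. There was 1 library per group, so the difference was not tested, and neither gene was called over the 3 libraries.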

How the results depend on the processing

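Fewer genes were called without the replicate block, which pairs the states by library: 335 rose and 22 fell, and over the 5 programmes 0 rose and 1 fell. Thinned cells gave 418 higher and 208 lower, with 4 programme genes higher and 8 lower. Depth-matched 0-UMI cells gave 338 and 157, with 0 programme genes higher and 5 lower, and turned Sox17 to -0.23 and Fabp5 to 0.24. DESeq2 called 115 genes lower and 2 programme genes higher. Without the filter 597 genes, and 22 programme genes, were lower. Without barcodes over 40000 UMIs 3 programme genes were higher. As single libraries were left out, 620 to 891 genes rose and 209 to 449 fell, the programme genes ranged from 2 to 10 higher and 12 to 20 lower, and the medians from -0.95 to -0.27 for venous and -1.82 to -0.86 for endocardial genes. Of 56 named genes called outside the cycle lists, 13 stayed called in all 13 settings, and 4 more in all 12 that gave them a value. The causes were not tested. Among the 13 only Npr3 and 6330403K07Rik fell. The others were among the 12 highest log2 ratios outside the lists, such as Hist1h2ap, Esco2 and Ska1. Their rise goes with choosing the cells by cycle genes, so their stability is a description only. Among the 4, Comp, Epha7 and Pik3ip1 fell and Sapcd2 rose.

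At 10 UMIs of the cycle genes, 5.50% of GFP-positive, 3.70% of GFP-negative and 4.37% of RA endothelial cells were cycling. After thinning these shares were 3.89%, 3.37% and 2.92% at the rule of 5 UMIs. Unthinned, the shares of cycling and 0-UMI cells of the GFP-positive library were 81.0% and 70.8% for Gja4, 73.6% and 68.7% for Nr2f2, 31.6% and 35.5% for Npr3, 31.6% and 31.6% for Prox1 and 31.6% and 15.8% for Rgcc. With 13 and 17 cycling cells outside the GFP-positive library, depth limits the genes of few UMIs there.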
